A study of Mus musculus with 2 samples.

Results

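The genes described here are 31 genes of cholesterol metabolism, measured in the skin of newborn *Pnpla1*-/- and *Pnpla1*+/+ mice. They were taken by gene name from the array's own annotation, where *Msmo1* is written *Sc4mol*, and they are 31 of 30133 genes with a probe on the array. By role, 18 of them encode enzymes that make cholesterol, 4 sense sterols and set the rate of synthesis, and 9 move, export, esterify or sulphate cholesterol or encode the receptors that govern export. PNPLA1 is a lipase family protein of the upper epidermis, and its gene is mutated in an inherited ichthyosis. The mice were C57BL/6N animals at postnatal day 0, and the knockout was made from knockout-first targeted embryonic stem cells whose reporter and selection cassettes were excised with flippase. Homozygous *Pnpla1*-/- pups and *Pnpla1*+/+ littermates came from intercrosses of heterozygotes. Equal amounts of skin RNA of 6 animals were pooled per genotype, labelled with 1 dye (Cy3) and hybridized to 1 Agilent mouse array per genotype, and the question was which genes differ between these skins.

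Cholesterol is built from acetyl-CoA. The mevalonate pathway makes isoprenoid units, these are joined to squalene, squalene is closed to lanosterol, and lanosterol is trimmed to cholesterol. When membranes of the endoplasmic reticulum are poor in sterol, SCAP carries the transcription factor SREBP-2 to the Golgi, where it is cut and released to switch on the genes of synthesis and uptake, whereas INSIG proteins hold the complex back when sterol is plentiful. An excess of sterol gives oxysterols, which activate the LXR receptors and, through them, the genes of cholesterol export. In the epidermis, cholesterol, ceramides and free fatty acids form the lipid lamellae of the stratum corneum, and cholesterol sulphate is made in the upper layers.

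Each array had 43020 spots other than controls for 39429 probes. Well above background were 71.7% of these spots in *Pnpla1*+/+ skin and 73.3% in *Pnpla1*-/- skin, and no spot was saturated. Intensities are given below as deposited, after background subtraction and before scaling. A difference is the log2 intensity in *Pnpla1*-/- skin minus that in *Pnpla1*+/+ skin after each was divided by the 75th percentile of its own array, which was 2108.4 in *Pnpla1*+/+ and 1734 in *Pnpla1*-/- skin. Because that percentile was lower on the *Pnpla1*-/- array, a gene with equal intensities has a difference above 0. A gene is represented by its brightest probe, and since each probe has its own response, the words bright and dim, and sums over probes, refer to signal on the array and not to the relative RNA levels of genes. With 1 array per genotype there was no replicate, no test was possible, and a difference describes the 2 pools compared. The only error that could be measured was that of repeated spots of 309 probes, whose SD of the difference had a median of 0.15 at intensities under 200, 0.05 from 200 to 2000 and 0.03 above 2000. It leaves out labelling, hybridization and the variation between mice.

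The label of the knockout was checked first. *Pnpla1*, with its probe at 29026908 to 29026967 on chromosome 17 of mm9, read 579 on the *Pnpla1*+/+ array and 114 on the *Pnpla1*-/- array, a difference of −2.07. The probe was lower in the pool labelled as knockout and still well above background there. The pools also differed in sex-linked transcripts, with *Xist* at 853 in *Pnpla1*+/+ and 1528 in *Pnpla1*-/- skin and *Ddx3y* at 1863 and 336. Of the 31 genes, *Nsdhl* and *Ebp* lie on the X chromosome, where 849 genes had a median difference of −0.02. The part of the sex makeup in *Nsdhl* and *Ebp* cannot be read from that median and was not tested.

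All 31 genes were well above background on both arrays. Most were higher in *Pnpla1*-/- skin: 29 had a difference above 0, and only *Insig2* and *Npc1* were below it. The median over the 31 genes was 0.60, against 0.00 over 22374 genes, of which 20680 were measured on both arrays and 1694 on 1 array, with a bound standing in for the difference. All shares of genes below refer to these 22374. The 31 genes, and the lists described below, were chosen with earlier results of these data known. Their shares beside those of all genes are therefore not independent of the data. At least 2-fold higher were 6 of the 31 (*Mvd*, *Sqle*, *Lss*, *Msmo1*, *Sc5d* and *Abcg1*), which is 19.4%, against 6.71% of all genes. At least 1.5-fold higher were 16 (51.6%), against 13.8% of all genes. None was 2-fold lower, against 3.04% of all genes, and none was 1.5-fold lower, against 9.35%. Over the 20680 genes measured on both arrays, as the 31 genes were, these shares were 5.65% and 11.6% higher and 2.56% and 8.66% lower, with a median of −0.0091. The sizes depended on the scaling between arrays. Without scaling the median of the 31 genes was 0.32 and 2 (6.45%) were 2-fold higher (*Sqle* and *Abcg1*), against 4.47% of all genes under that setting. After spike-in centring the median was 0.17, with 1 gene (3.23%) 2-fold higher (*Abcg1*) and 1 lower (*Insig2*), against 3.74% and 9.68% of all genes. The share of 2-fold higher genes among the 31 was thus near that of all genes under both settings. These settings apply to every gene, and the median of all genes shifted by −0.43 with centring on spike-in RNA and by −0.28 without scaling. Of all genes that differed by at least 2-fold, 68.8% were higher in *Pnpla1*-/- skin, but 27.9% after spike-in centring and 41.2% without scaling. Under all 12 alternative settings, 22 of the 31 genes stayed above 0 and *Insig2* and *Npc1* below it, while 7 genes with small differences took both signs.

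**Figure D1:**
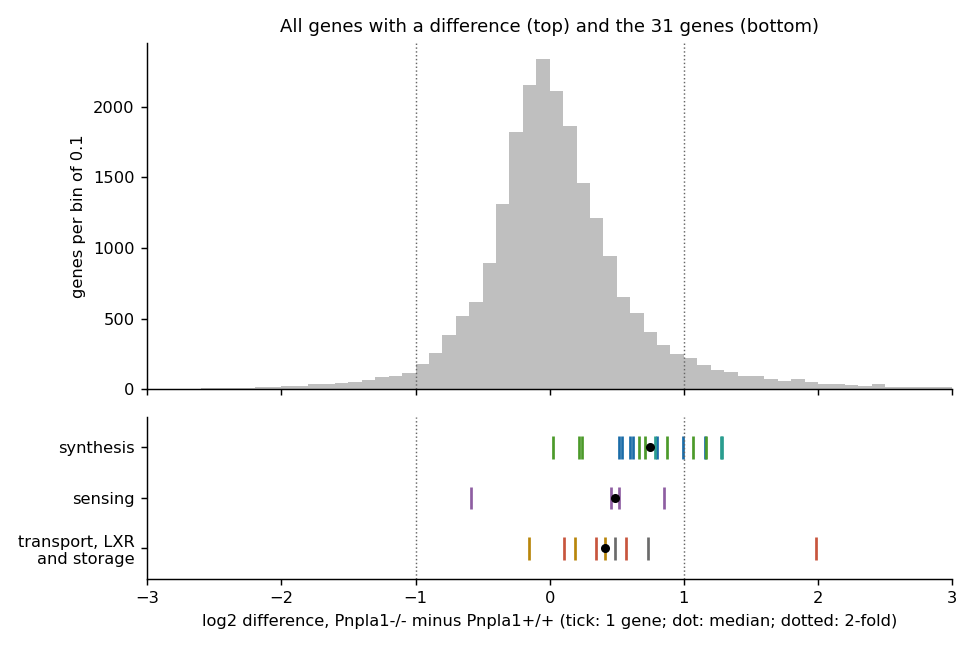
Number of genes in each 0.1-wide bin of the log2 difference, *Pnpla1*-/- minus *Pnpla1*+/+ skin (top, genes between −3 and 3), and the difference of each of the 31 genes as a tick with the group median as a dot (bottom). The distribution of all genes is centred near 0, whereas 24 of the 31 ticks lie above its upper quartile of 0.32 and 11 above its 90th percentile of 0.75.

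The 18 synthesis genes were all above 0, from 0.03 for *Tm7sf2* to 1.28 for *Sqle*, and their median was 0.74. Of these, 5 were higher by 2-fold or more (27.8%, against 6.71% of all genes) and 13 by 1.5-fold or more (72.2%, against 13.8%). Without scaling their median was 0.46 and only *Sqle* (5.56%) was past 2-fold, against 4.47% of all genes, and after spike-in centring it was 0.32 and none was, against 3.74%. After spike-in centring or without scaling, *Tm7sf2*, *Hsd17b7* and *Dhcr7* were below 0 and the other 15 above it.

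The 7 genes of the mevalonate pathway had differences between 0.51 and 1.16, with a median of 0.62. *Acat2*, the cytosolic thiolase that joins acetyl-CoA units in the opening step, read 328 in *Pnpla1*+/+ skin and 538 in *Pnpla1*-/- skin. It was higher by 0.99, which is 1.99-fold and thus just under the 2-fold line, and cyclic loess normalization put it past that line with 1.07. Whether its probe also takes up RNA of the related gene *Acat3* was not tested. *Hmgcs1*, the HMG-CoA synthase of the cytosol, read 22722 and 26669, a difference of 0.51, and its dim second probe read 51.6 and 65.6, a difference of 0.63. *Mvk*, mevalonate kinase, read 18038 and 21556, a difference of 0.54, with 0.48 from a second probe. *Pmvk*, phosphomevalonate kinase, read 16736 and 21170.4, a difference of 0.62, with 0.53 from a second probe. The kinases that act in turn on mevalonate were thus higher by about the same amount, by each of their probes. *Mvd*, the decarboxylase that makes isopentenyl diphosphate, stood out in this group with 1306 in *Pnpla1*+/+ and 2394 in *Pnpla1*-/- skin. Its difference of 1.16 is 2.23-fold, and its probe lies at 124957750 to 124957809 on chromosome 8 of mm9. *Idi1*, the isomerase of isopentenyl diphosphate, read 7563 and 9423, a difference of 0.60. *Fdps*, farnesyl diphosphate synthase, read 16966 and 24319, a difference of 0.80.

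The genes that turn farnesyl diphosphate into lanosterol had the highest median of the 7 role groups, 1.28 over 3 genes. *Fdft1*, squalene synthase, read 3026 in *Pnpla1*+/+ and 4277 in *Pnpla1*-/- skin, a difference of 0.78. *Sqle*, the squalene epoxidase, the first step of the pathway that uses oxygen, read 12513 and 25027. *Lss*, which closes the ring to lanosterol, read 992 and 1979. For both of the latter the *Pnpla1*-/- reading was about 2 times the other before any scaling, and after it *Sqle* and *Lss* both had a difference of 1.28, or 2.43-fold. The *Sqle* probe lies at 59162688 to 59162747 on chromosome 15 and that of *Lss* at 76015992 to 76016051 on chromosome 10 of mm9. Spike-in centring, the lowest of the alternatives, left *Sqle* at 0.86 and *Lss* at 0.85.

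The 8 genes from lanosterol to cholesterol had a median of 0.69 and the widest spread of the synthesis groups. *Cyp51*, the lanosterol demethylase, read 928 and 1402, a difference of 0.88. *Msmo1*, which oxidizes the methyl groups at carbon 4, read 14002 in *Pnpla1*+/+ and 25854 in *Pnpla1*-/- skin, a difference of 1.17. *Nsdhl*, its partner dehydrogenase, read 863 and 1125, a difference of 0.66, with 0.80 from a second probe. *Hsd17b7*, the ketoreductase of the same demethylation, stayed close to all genes, with 1929 and 1844, a difference of 0.22 and 0.19 from a second probe. Another probe, annotated with a different transcript, read 156 and 79.3 and went the other way with −0.69, so that the mean over the probes of *Hsd17b7* was below 0. *Tm7sf2*, a sterol reductase, read 4888 and 4098, a difference of 0.03 that lay within the error of repeated spots, with −0.01 from a second probe. This was the smallest difference of the 31 genes, and it was also below 0 under 5 of the 12 alternatives. *Ebp*, the sterol isomerase, read 16199 and 21750.4, a difference of 0.71. *Sc5d*, the lathosterol desaturase, read 3593 and 6204, a difference of 1.07. *Dhcr7*, which ends one branch of the pathway, read 1461 and 1424, a difference of 0.24.

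**Figure D2:**
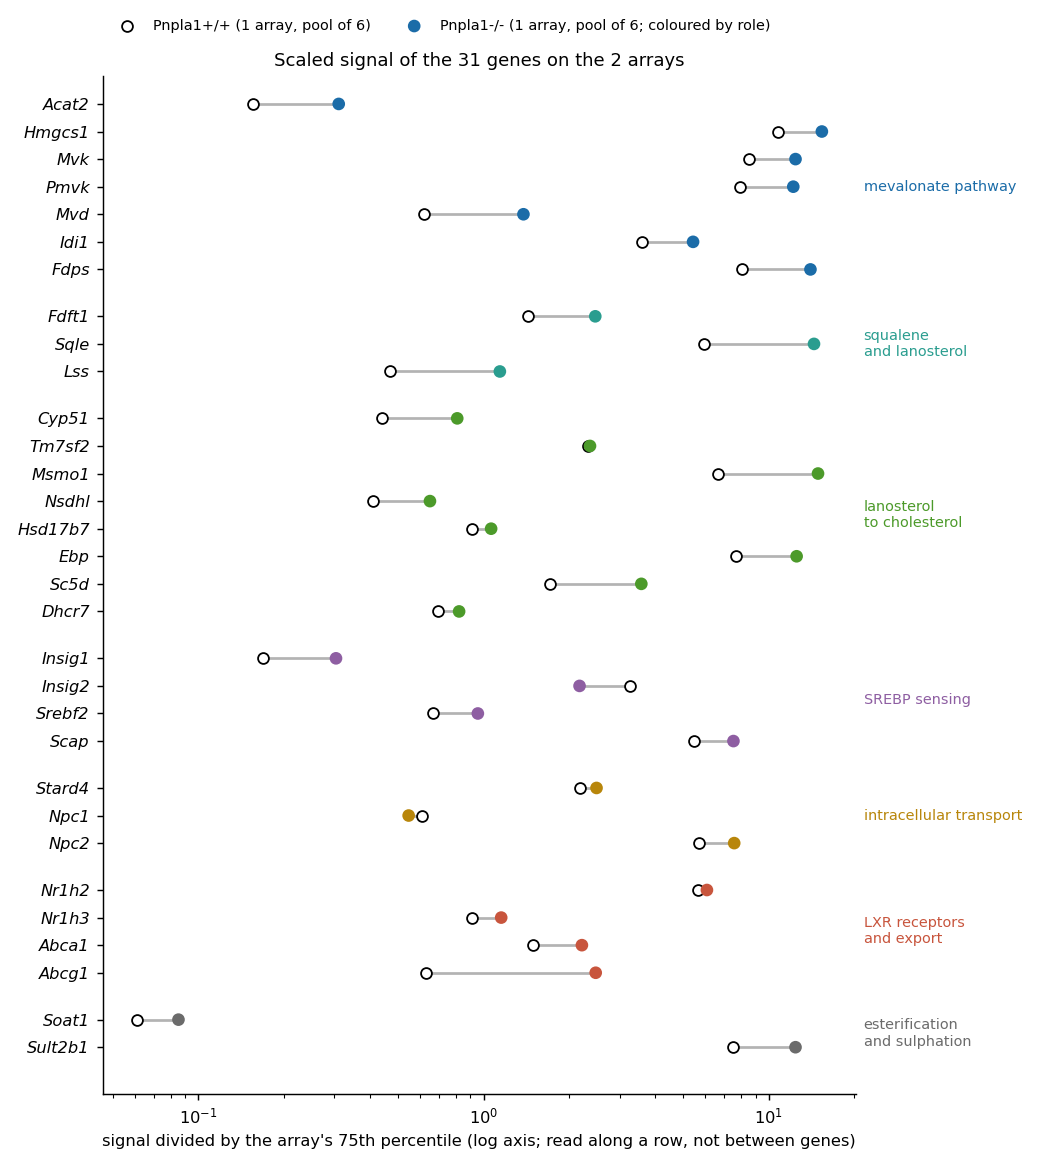
Signal of the brightest probe of each of the 31 genes, divided by the 75th percentile of its array (log axis), in *Pnpla1*+/+ skin (open circles) and *Pnpla1*-/- skin (filled circles, coloured by role), with 1 array and no replicate per genotype. The filled circle lies to the right of the open one in 29 rows and to the left for *Insig2* and *Npc1*, and the widest gap is that of *Abcg1*.

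The sensing genes did not all go one way. *Insig1*, which holds SCAP in the endoplasmic reticulum and is itself a target of SREBP-2, read 354 in *Pnpla1*+/+ and 527 in *Pnpla1*-/- skin, a difference of 0.85. *Insig2*, its relative with the same role, read 6867 and 3767. Its difference was −0.58, just short of 1.5-fold, and a second probe read 2472 and 1372, a difference of −0.57. *Insig1* was thus higher and *Insig2* lower in the *Pnpla1*-/- pool, in all 12 alternatives. *Insig2* lay at percentile 9.35 of all genes and had a difference of −1.01 after spike-in centring. *Srebf2*, the gene of SREBP-2, read 1407 and 1656, a difference of 0.52, with 0.42 from a second probe. *Scap*, the escort protein, read 11554 and 13056, a difference of 0.46. The median of the 4 genes was 0.49, but 0.06 after spike-in centring.

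**Figure D3:**
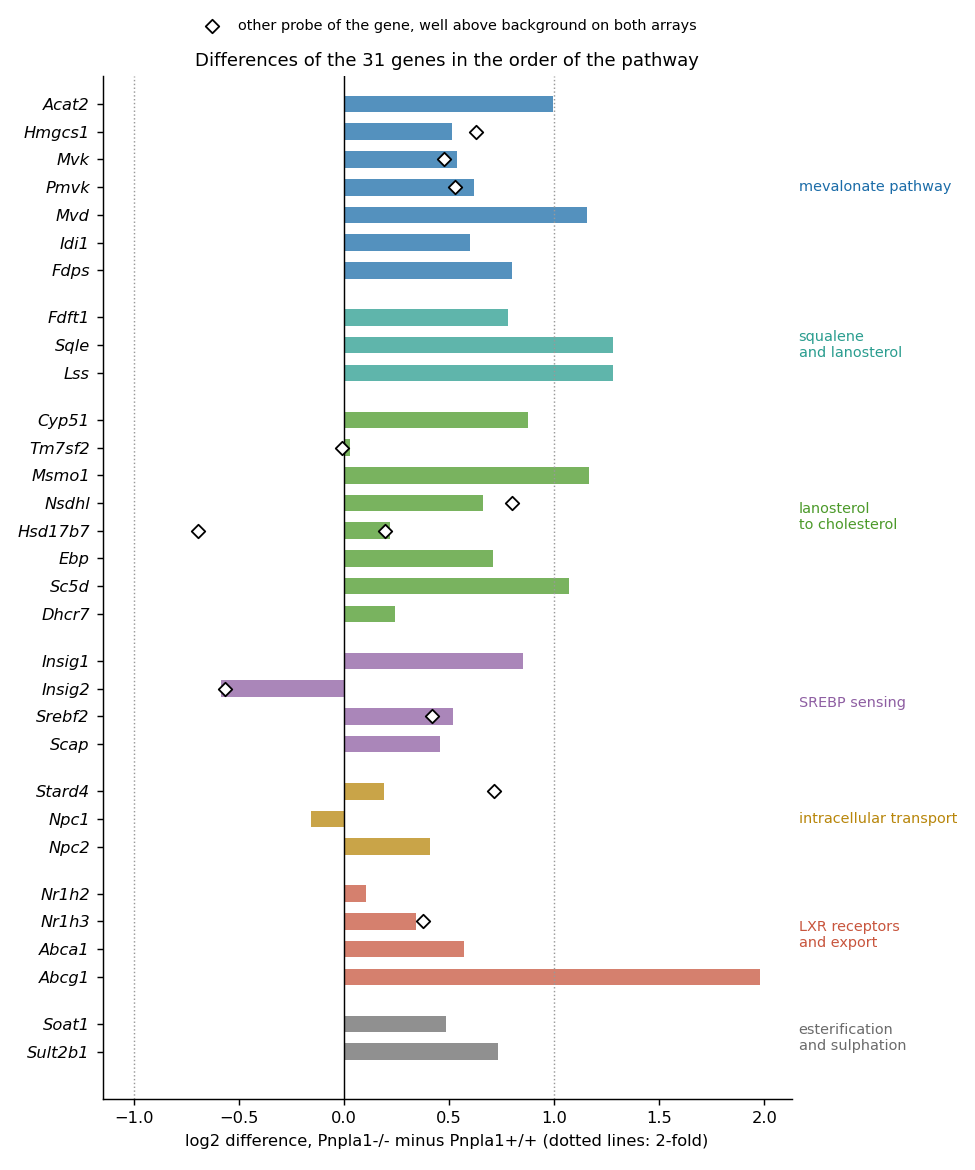
Log2 difference, *Pnpla1*-/- minus *Pnpla1*+/+ skin, of the brightest probe (bars, coloured by role) and of other measured probes (diamonds) of the 31 genes in the order of the pathway; dotted lines mark 2-fold. Bars of *Mvd*, *Sqle*, *Lss*, *Msmo1*, *Sc5d* and *Abcg1* pass the 2-fold line, and a diamond lies far from its bar for *Hsd17b7* and *Stard4*.

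Probes of one gene mostly gave alike values. For the 10 genes that had several measured probes, the differences had a median range of 0.09, and 8 genes had a range under 0.2. *Hsd17b7* and *Stard4* had the wider ranges. For 20 genes there was 1 probe only, *Sqle*, *Lss*, *Msmo1*, *Sc5d*, *Mvd* and *Abcg1* among them, so their differences have no second probe behind them.

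The stretch upstream of the start sites was read from the RefSeq promoter table of assembly GRCm38.p6, which holds 25 of the 31 genes. These reference sequences do not depend on the arrays, and the part of any motif in the differences was not tested. The 250 bases before each start were searched on both strands for the CCAAT box, bound by NF-Y, which works with SREBP on these genes (CCAAT, or ATTGG on the other strand), and for a core of the sterol regulatory element (CACNCCAC or GTGGNGTG). In these genes no match to one overlapped a match to the other. A gene was counted if any of its start sites had a match. The CCAAT box was found in 14 of the 15 synthesis genes in the table, all but *Acat2*, in 3 of 4 sensing genes and in 19 of all 25 (76%). *Insig2* was counted by 1 of its 3 start sites. Over the whole table it was found in 33.8% of 32851 promoters and in 37.5% of 27025 genes. None of the 3 LXR and export genes in the table (*Nr1h2*, *Nr1h3* and *Abca1*) had it. The sterol element core was found in 3 of the 25 genes (12%), *Acat2*, *Hmgcs1* and *Insig1*, against 5.29% of promoters and 6.05% of genes in the table. A match is a run of letters and not a bound site, and no match says only that these letters are not in this window.

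The 150 bases up to the base before the start are shown for the genes at least 2-fold higher that the table holds, for *Hmgcs1*, which has both motifs, and for *Insig2*, the gene with the lowest difference. Capitals mark the CCAAT box and the sterol element core. *Hmgcs1* was read at chr13:119690201-119690350 on the plus strand, *Mvd* at chr8:122443423-122443572 on the minus strand and *Lss* at chr10:76531455-76531604 on the plus strand. *Msmo1* was read at chr8:64733579-64733728 on the minus strand, *Sc5d* at chr9:42264301-42264450 on the minus strand, and *Insig2* at chr1:121332590-121332739 on the minus strand.
Hmgcs1: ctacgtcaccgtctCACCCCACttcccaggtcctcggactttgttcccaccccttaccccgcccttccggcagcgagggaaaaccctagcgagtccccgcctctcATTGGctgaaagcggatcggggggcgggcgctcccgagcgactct
Mvd: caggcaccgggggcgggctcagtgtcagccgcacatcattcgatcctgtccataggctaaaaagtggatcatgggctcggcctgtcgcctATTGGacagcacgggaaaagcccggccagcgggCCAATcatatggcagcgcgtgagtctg
Lss: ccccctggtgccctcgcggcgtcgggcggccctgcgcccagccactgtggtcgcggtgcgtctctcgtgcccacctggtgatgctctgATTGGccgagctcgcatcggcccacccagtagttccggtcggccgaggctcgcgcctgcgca
Msmo1: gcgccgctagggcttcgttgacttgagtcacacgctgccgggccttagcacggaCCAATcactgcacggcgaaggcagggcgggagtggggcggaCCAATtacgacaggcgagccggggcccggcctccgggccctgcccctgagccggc
Sc5d: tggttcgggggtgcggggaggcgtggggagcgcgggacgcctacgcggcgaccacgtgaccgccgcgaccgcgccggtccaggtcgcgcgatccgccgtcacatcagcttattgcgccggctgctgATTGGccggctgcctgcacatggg
Insig2: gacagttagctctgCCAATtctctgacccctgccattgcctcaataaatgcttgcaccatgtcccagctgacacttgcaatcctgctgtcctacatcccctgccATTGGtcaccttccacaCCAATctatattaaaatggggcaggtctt

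The sterol element core of *Hmgcs1* begins 136 bases before the start and its nearest CCAAT box 45 bases before it. *Mvd* has CCAAT boxes 60 and 27 bases before the start, *Lss* has 1 at 62 and *Sc5d* 1 at 24, and those of *Msmo1* begin at 160, 96 and 55, the farthest outside the stretch shown. *Insig2* has 3 start sites in the table, and the one shown has boxes at 136, 46 and 29, while the others have none. The box is thus present at genes that were higher in *Pnpla1*-/- skin and, at 1 of 3 start sites, at *Insig2*, which was lowest. *Tm7sf2* and *Dhcr7*, which stayed close to all genes, have it as well, *Dhcr7* only at start site 3 of its 3. Which start sites are used in skin was not measured.

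The 9 genes of transport, LXR and storage had a median of 0.41, and 1 of the 9 was at least 2-fold higher, against 6.71% of all genes. After spike-in centring the median of the 9 genes was −0.016. That gene, *Abcg1*, was still past 2-fold there, against 3.74% of all genes. The 3 genes that move cholesterol between compartments had the lowest median of the 7 role groups, 0.19. *Stard4*, a cytosolic sterol carrier, read 4600.3 in *Pnpla1*+/+ and 4320.1 in *Pnpla1*-/- skin, a difference of 0.19, while a dimmer second probe read 247 and 334, a difference of 0.72. *Npc1*, the membrane protein that lets cholesterol out of lysosomes, read 1283 and 947, a difference of −0.16. *Npc2*, its soluble partner, read 12019.9 and 13136, a difference of 0.41. The partners thus had opposite signs here, but *Npc2* was at −0.016 after spike-in centring, as *Stard4* was below 0 there.

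*Abcg1*, which exports cholesterol to lipoproteins and is a target of LXR, had the largest difference of the 31 genes. Its intensity was 1321 in *Pnpla1*+/+ skin and 4292 in *Pnpla1*-/- skin. The difference of 1.98, or 3.95-fold, put it at percentile 98.1 of all genes, and it ranged from 1.56 to 2.06 over the alternatives. Its probe, at 31252580 to 31252639 on chromosome 17 of mm9, lies 2.23 Mb from that of *Pnpla1*. The 271 other genes within 5 Mb of *Pnpla1* had a median of 0.01, and 5.54% of them were at least 2-fold higher. *Abca1*, the other exporter and also an LXR target, read 3142 and 3839, a difference of 0.57. The receptors themselves were closer to all genes. *Nr1h2*, the gene of LXR beta, read 11917 and 10538.6, a difference of 0.10. *Nr1h3*, the gene of LXR alpha, read 1919.6 and 2000.2, a difference of 0.34, with 0.38 from a second probe. Both were below 0 after spike-in centring, and *Nr1h2* also without scaling.

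*Soat1*, which esterifies cholesterol for storage, was dim, with 128 in *Pnpla1*+/+ and 148 in *Pnpla1*-/- skin, a difference of 0.49. *Sult2b1*, which makes cholesterol sulphate in the upper epidermis, read 15774 and 21554, a difference of 0.73. Both had a single probe and were above 0 under all 12 alternatives.

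**Figure D4:**
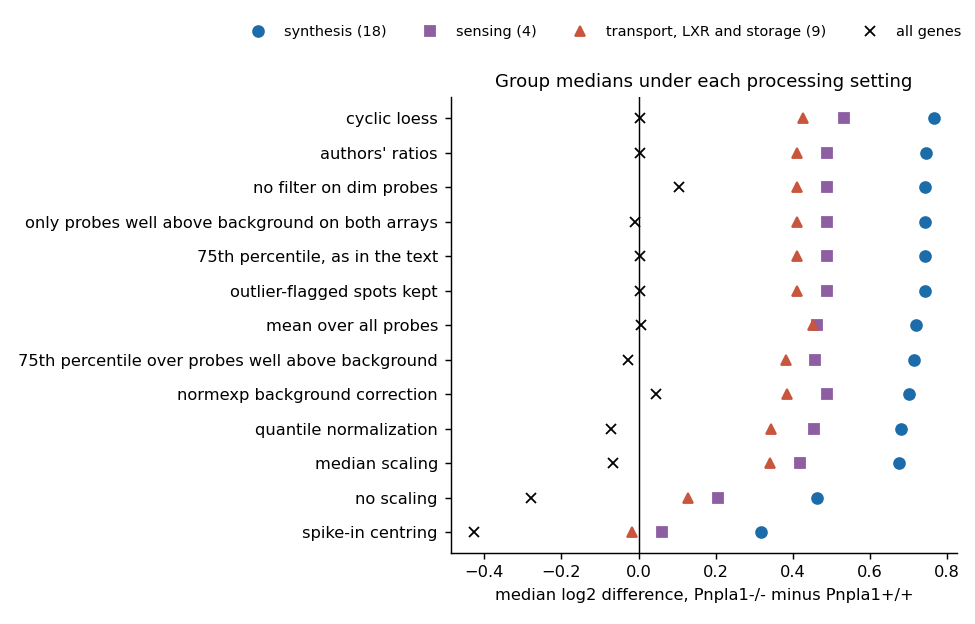
Median log2 difference of the synthesis (circles), sensing (squares) and transport, LXR and storage genes (triangles) and of all genes (crosses) under the scaling used here and 12 alternatives. Without scaling and with spike-in centring the group medians and the crosses shift alike, without a filter on dim probes only the cross shifts, and the synthesis median lies between 0.64 and 0.76 above the median of all genes in each setting.

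Leaving out the scaling or centring on the spike-in shifted all genes by the same amount. Relative to the median of all genes under the same setting, the 31 genes had a median between 0.49 and 0.62, the sensing genes between 0.38 and 0.53, and the transport, LXR and storage genes between 0.31 and 0.45.

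Neighbouring parts of sterol metabolism were described with 8 lists, of which 64 of 68 genes had a difference. Their median was 0.10, and 4 of the 64 (6.25%) were at least 2-fold higher, close to the 6.71% of all genes, and none 2-fold lower. The 10 genes of the isoprenoid branches, which draw on the same mevalonate units for protein prenylation, ubiquinone and dolichol, had a median of −0.10 with none past 2-fold. The brightest of them, *Fnta*, read 16451 and 11438, a difference of −0.24. The 11 genes of SREBP processing and sterol-regulated degradation had a median of −0.01, and 1 was past 2-fold. That gene was *Srebf1*, which encodes the SREBP-1 proteins and is itself a target of LXR, with 260 in *Pnpla1*+/+ and 474 in *Pnpla1*-/- skin, a difference of 1.15. *Vcp*, the brightest of that list, was at −0.03. The 8 genes of lipoprotein receptors and lysosomal release had a median of 0.21 with none past 2-fold, and the brightest, *Scarb1*, was at 0.10.

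The list of further LXR target genes held 7 genes, among them *Nr1h5*, which encodes another nuclear receptor and is not a known LXR target. *Nr1h5* and the sterol exporter genes *Abcg5* and *Abcg8* were not well above background on either array. The other 4 ran from −0.41 to 2.15 with a median of 0.90, and they do not stand for all LXR targets. *Abcg4*, a relative of *Abcg1*, read 884 in *Pnpla1*+/+ and 3218 in *Pnpla1*-/- skin, a difference of 2.15, but its other probes gave 0.00 and 2.40. *Smpdl3a*, a phosphodiesterase, read 6784 and 13614, a difference of 1.29. *Lpcat3* and *Arl4c*, named to complete the list after their values were seen, were at 0.51 and −0.41. *Mylip*, an LXR target counted among the lipoprotein receptors and also named after its value was seen, was at 0.04.

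Among 6 oxysterol and bile acid enzymes the median was 0.28. *Cyp7b1*, which hydroxylates oxysterols and steroids, read 455 in *Pnpla1*+/+ and 2173 in *Pnpla1*-/- skin, a difference of 2.54 at percentile 98.9 of all genes. This was the largest difference in the 8 lists, and it stayed at 2.11 after spike-in centring. *Hsd3b7*, the brightest of the list, was at 0.07. The 11 sterol carriers had a median of 0.32 and the 8 genes of ester and sulphate turnover 0.17, with none past 2-fold, and their brightest probes, for *Scp2* and *Slc35b2*, were at 0.32 and −0.12. Of 7 other enzymes that act on the sterol ring or pass electrons to it, 6 had a difference, with a median of −0.16 and none past 2-fold, and the brightest, *Cyb5a*, was at 0.05. After spike-in centring the median of each of the 8 lists was below 0, except that of the further LXR targets, which was at 0.47 over 4 genes.

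**Figure D5:**
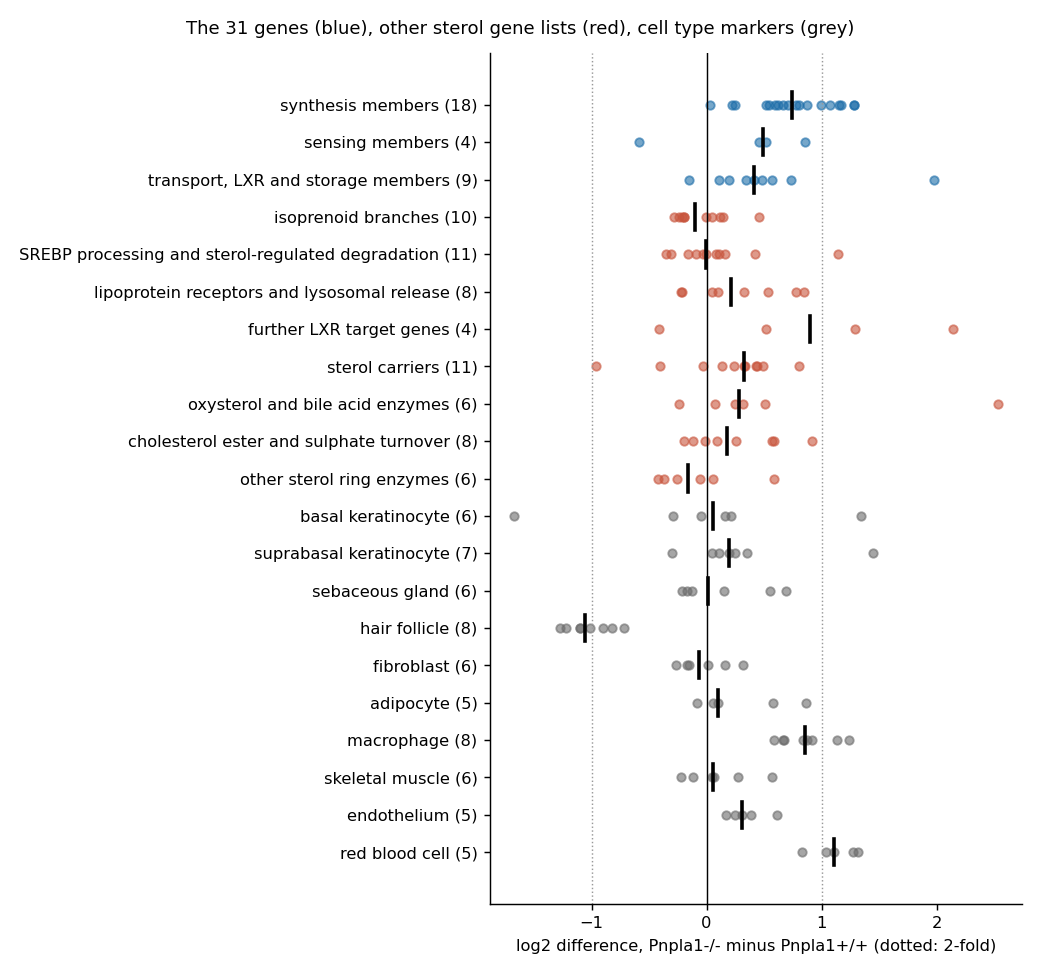
Log2 difference, *Pnpla1*-/- minus *Pnpla1*+/+ skin, of each gene (dots) and the median (bars) in the groups of the 31 genes (blue), the 8 lists of neighbouring sterol genes (red) and the cell type markers (grey), with the number of genes with a difference in brackets. The synthesis genes lie above 0 as a group, each red list has genes on both sides of 0, the 8 macrophage markers lie above 0 and the 8 hair follicle markers below it.

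Whole skin holds many cell types, and in such a sample fewer cells of a type and less RNA per cell cannot be told apart. Marker genes of keratinocytes, fibroblasts and other skin cells were well above background, as skin should show. The 6 markers of basal keratinocytes had a median of 0.06, with *Krt14* at 1.35 and *Krt15* at −1.67, and the summed scaled signal was 191 in *Pnpla1*+/+ and 222 in *Pnpla1*-/- skin. The brightest, *Krt5*, was at 0.22. The 7 suprabasal markers had a median of 0.20, with *Dsg1b* at 1.45 and the brightest, *Krt10*, at 0.20, and a summed scaled signal of 474 and 494. The medians of the keratinocyte markers were thus lower than that of the synthesis genes, though *Krt14*, *Krt15* and *Dsg1b* differed by more than any synthesis gene. The 6 sebaceous gland markers were dim, with a median of 0.01, none past 2-fold and summed scaled signals of 0.741 and 0.878, and *Elovl3*, the brightest, at 0.55. All 8 hair follicle markers were lower, with a median of −1.05. At least 2-fold lower were 5 of the 8 (*Shh*, *Lhx2*, *Krt27*, *Krt28* and *Hoxc13*), against 3.04% of all genes. The brightest, *Krt71*, read 84119 and 39193. The summed scaled signal of the 8 markers was 82.2 in *Pnpla1*+/+ and 42.3 in *Pnpla1*-/- skin.

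All 8 macrophage markers were higher, with a median of 0.86 and summed scaled signals of 16.8 in *Pnpla1*+/+ and 29.1 in *Pnpla1*-/- skin. Of these 8, *Adgre1* (1.24) and *Cd163* (1.13) were past 2-fold, against 6.71% of all genes. The brightest marker, *Csf1r*, read 14484 and 18988, a difference of 0.67. Macrophages are known to express *Abcg1*, *Abca1* and *Npc2*, and the part of these markers in the differences of those genes was not tested. Of 5 red blood cell genes, 4 were at least 2-fold higher (*Hbb-bt*, *Hbb-bs*, *Alas2* and *Slc4a1*), against 6.71% of all genes. The median of the 5 was 1.11, with summed scaled signals of 76.6 and 148. The brightest probes read 71131 and 120122 for *Hbb-bt* and 81424 and 118798 for *Hba-a1*. Fibroblast markers had a median of −0.07, adipocyte markers of 0.10, skeletal muscle markers of 0.06 and endothelial markers of 0.31, with none past 2-fold, and *Lep* was not well above background. After spike-in centring the medians of these 4 lists and of the keratinocyte and sebaceous lists were all below 0, whereas those of the macrophage and red blood cell lists were at 0.43 and 0.68. The brightest of these lists, *Col1a2*, *Cfd*, *Myh8* and *Kdr*, were at −0.17, 0.58, 0.28 and 0.31. The part of these markers, and of the sex makeup of the pools, in the differences of the 31 genes was not tested.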

How the data were processed

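Skin RNA of *Pnpla1*+/+ and *Pnpla1*-/- mice was measured on 1 Agilent 4x44K v2 mouse array per genotype, grouped by the genotype in the labels. The authors extracted the scans with Feature Extraction 11.5.1.1 and deposited a linear intensity per spot after background subtraction and detrending, with the mean signal, local background and flags. The authors also deposited a table of ratios, each the processed intensity over 1 factor per array, 2109 and 1734, which lies at the 75th percentile.

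Here log2 intensities were centred on each array's 75th percentile in Python 3.11.15, outlier-flagged spots (138 and 82, none of the 31 genes) were left out, repeated spots averaged, and genes represented by the probe with the highest mean log2 signal. Of 30133 genes, 20680 were well above background on both arrays, 1710 on 1 array, of which 1694 gave a bound that was counted as a difference, and 7743 on neither. Probe coordinates are those of the scanner files (mm9), and names were updated through RefSeq tables of GRCm38.p6, for 31456 of 39429 probes. The number of arrays limits the precision, and no test was possible. The computation was tested on simulated data.

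The members and lists were chosen with earlier results of these data known. Every member, list genes at least 2-fold apart and the brightest gene of each list are named, with *Pnpla1* as the check. Alternatives were 6 scalings, normexp correction with an offset of 50 (limma 3.58.1, R 4.3.3), the deposited ratios, the mean over probes, 2 filters on dim probes, outlier-flagged spots kept, and thresholds of 1.5-fold and 3-fold. Slide could not be used as a block, because 1 slide held both arrays. Some genes are not reported here.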

Additional observations from a re-analysis of the deposited data

How the results depend on the processing

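Median differences are given for all 31, the synthesis, the sensing, and the transport, LXR and storage genes in turn. Median scaling gave 0.53, 0.67, 0.42 and 0.34, with *Pnpla1* at −2.14. No scaling gave 0.32, 0.46, 0.21 and 0.13, with 2 members at least 2-fold higher (*Sqle* and *Abcg1*), 998 genes higher and 1424 lower, and *Pnpla1* at −2.35. Centring on 8 spike-in probes gave 0.17, 0.32, 0.062 and −0.016, with 1 member 2-fold higher (*Abcg1*) and 1 lower (*Insig2*), 830 genes higher and 2147 lower, and *Pnpla1* at −2.49. Quantile normalization gave 0.55 for all, 0.68 for synthesis and 0.34 for transport, with *Pnpla1* at −2.14. Cyclic loess moved the sensing median to 0.53. It put 7 members (22.6%) past 2-fold, with *Acat2* added at 1.07, against 6.42% of all genes. The mean over all probes moved the transport median to 0.45. Normexp gave 0.70 for synthesis, 960 genes higher and 321 lower, and *Pnpla1* at −1.51. Without a filter on dim probes 3041 genes were higher and 1.1e+03 (rounded) lower, since more genes were counted. A 1.5-fold threshold gave 16 members and 3094 genes higher and 2092 lower, and a 3-fold threshold 1 member, 685 and 228.

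No scaling, median scaling, the other percentile and the spike-in shift all genes by 1 amount, whereas quantile normalization and cyclic loess do not, and the cause of their disagreement was not tested. Members with the other sign were *Tm7sf2*, *Hsd17b7*, *Dhcr7*, *Stard4* and *Nr1h2* without scaling, these and *Npc2* and *Nr1h3* with the spike-in, *Tm7sf2* alone with median scaling, quantile normalization and the percentile over probes well above background, and *Hsd17b7* with the mean over its probes. The deposited ratios, the stricter filter on dim probes and keeping outlier-flagged spots left every sign and each of the 6 members past 2-fold. The slide as a block was not run, as both arrays share 1 slide. Most members had intensities far above background, and the dimmest were *Soat1*, the second probes of *Hmgcs1* and *Fdft1*, and the *Hsd17b7* probe at 156 and 79.3 that turns its sign.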
